A study of Mus musculus with 19 samples.

Results

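Imprinted genes are transcribed mainly from the copy inherited from 1 parent. The choice rests on DNA methylation laid down in the egg or the sperm at an imprinting control region, and most imprinted genes lie in clusters in which a control region governs genes of both parental kinds, often through a long noncoding RNA or an insulator that binds CTCF. Several encode growth factors, growth inhibitors or proteins of the developing brain. Zfp57 is a zinc finger protein that binds a methylated hexamer in imprinting control regions and keeps their methylation in the early embryo. Wiz, the gene mutated here, is a zinc finger protein that works with the histone methyltransferases Ehmt1 (GLP) and Ehmt2 (G9a).

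The list held 45 genes, 44 imprinted genes and *Zfp57*, matched by gene symbol. In the RNA-seq counts, 43 of the 45 could be matched to 1 identifier among the 41388 of the series, and *Snrpn* and *Peg13* were not analysed here. Of the 43, 23 are known for paternal and 17 for maternal expression. These are general labels, and whether each gene was read from 1 copy in these tissues was not measured. *Grb10* changes allele by tissue, *Gnas* gives transcripts of both kinds, and *Zfp57* is not treated as imprinted, so that counts of listed genes below include it and counts of imprinted genes do not. The mice are labelled FVB, and the *Line3* strain used in the study is on the inbred FVB/NJ background, so reads could not be assigned to a parental copy. The values are total levels of both copies.

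The *Wiz* MommeD30 allele came from an ENU mutagenesis screen in *Line3* FVB/NJ mice, which are homozygous for a GFP transgene array driven by a human α-globin promoter and enhancer, and all groups carry this background. Whole brains were taken at 13.5 days post coitum (E13.5) from *Wiz* +/+ and *Wiz* MommeD30/+ male embryos (3 and 3) and female embryos (2 and 2), and cerebellum at 56 days post partum from *Wiz* +/+ and *Wiz* MommeD30/+ males (3 and 3). Heterozygotes retain 1 intact copy in every cell. The study's embryos came from matings of heterozygous mothers with heterozygous fathers, so both parents of *Wiz* +/+ embryos also carried the mutant allele. Which parent passed it on to a given heterozygous embryo, and which cross gave the adults, is not given in the sources used here. This matters for genes read from 1 parental copy. Each library is labelled as a separate sample, and all p-values measure the spread between these samples.

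Libraries held 16386029 to 50459755 counts, the smallest being the second male *Wiz* +/+ brain. *Wiz* itself (ENSMUSG00000024050) ranged from 182.5 to 200.9 CPM (counts relative to library size, scaled by TMM) in *Wiz* +/+ brains of both sexes and from 118.1 to 128.7 CPM in *Wiz* MommeD30/+ brains, and from 95.2 to 95.8 and from 66.5 to 67.9 CPM in cerebellum, with no overlap between genotypes. Summed over the lists of defining markers, Purkinje cell markers (4 genes) lay at 46.0 to 62.7 CPM in embryonic brain and 5729 to 6200 CPM in cerebellum, and embryonic neural markers (7 genes) at 4700 to 4980 and 1261 to 1335 CPM. The tissue labels and these markers went the same way. Markers of meninges and mesenchyme (9 genes) were 620.2 to 859.8 CPM in the brains and 97.4 to 113.0 CPM in cerebellum, and endothelial markers (4 genes) 220.3 to 251.6 and 65.4 to 73.0 CPM. Cartilage markers (4 genes) were 119.9 to 164.8 and 12.7 to 13.8 CPM. Choroid plexus markers (7 genes) went the other way, at 307.9 to 539.3 CPM in the brains and 971.8 to 2078 CPM in cerebellum. The part of these cells in the levels of the imprinted genes was not tested. In bulk RNA, fewer cells of a type and less RNA per cell cannot be told apart.

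In *Wiz* +/+ male embryonic brain the imprinted genes included some of the most abundant transcripts. Per kilobase of exon, which allows genes of different length to be set side by side, *Nnat*, a small membrane protein of developing neurons, stood at 1232 ± 29.6 CPM per kb (SD, n = 3), in the top percentile of the detected genes. *Ndn* (necdin, a growth suppressor of neurons) followed at 125.0 ± 3.95, then the long noncoding RNA *Meg3* at 115.8 ± 5.15 and the noncoding RNA *H19* at 114.2 ± 7.08 CPM per kb. *Meg3* and *H19* differed by less than their SD. *Cdkn1c*, an inhibitor of cyclin-dependent kinases, had 78.8 ± 4.92, *Zfp57* 68.8 ± 2.12, *Mest* 61.1 ± 4.71, the fetal growth factor *Igf2* 57.1 ± 3.48 and the retrotransposon-derived *Peg10* 51.9 ± 2.68 CPM per kb. *Blcap* (44.8), *Rian* (44.5), *Grb10* (42.5), *Inpp5f* (39.3) and *Peg3* (36.6) came next, in CPM per kb. At the low end *Airn* had 0.786, *Rasgrf1* 0.510 and *Kcnq1ot1* 0.419 CPM per kb, the last spread over a transcript model of 93092 bases. *Phlda2*, a placental growth inhibitor, had at most 0.087 CPM in any brain and no count in any cerebellum, and was not tested.

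Adult *Wiz* +/+ cerebellum had another order. *Meg3* came first at 236.2 ± 8.45 CPM per kb (SD, n = 3), *Peg3*, a zinc finger protein, followed at 75.5 ± 4.26 and *Ndn* at 51.0 ± 1.24. *Rian* (48.3), *Nnat* (38.5), *Impact* (35.1, a translational regulator of neurons), *Inpp5f* (33.8) and *Blcap* (31.9) came next. *H19* had fallen to rank 32 of 43, at 0.668 ± 0.0986 CPM per kb, and *Zfp57* to rank 29, at 2.19 ± 0.215. Together the 43 genes took 1.102% ± 0.00815 of all counts in male *Wiz* +/+ brain and 0.783% ± 0.0228 in *Wiz* +/+ cerebellum (SD, n = 3). *Meg3* alone gave 19.4% to 20.97% of those counts in male brains and 48.9% to 51.6% in cerebellum.

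Summed by allele label, the 23 genes labelled paternal had a lower total in cerebellum than in brain and the 17 labelled maternal a higher one. The paternal sum was 5236 ± 34.0 CPM in male *Wiz* +/+ brain and 2334 ± 49.8 CPM in *Wiz* +/+ cerebellum, while the maternal sum was 4318 ± 108 and 5962 ± 181 CPM (SD, n = 3). In *Wiz* MommeD30/+ the paternal sums were 5421 ± 198 and 2341 ± 38.4 CPM and the maternal sums 4372 ± 220 and 5975 ± 261 CPM. The largest single part of the maternal total is *Meg3* and that of the paternal total in brain is *Nnat*, so these sums describe abundance and not the typical gene of a class.

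**Figure D1:**
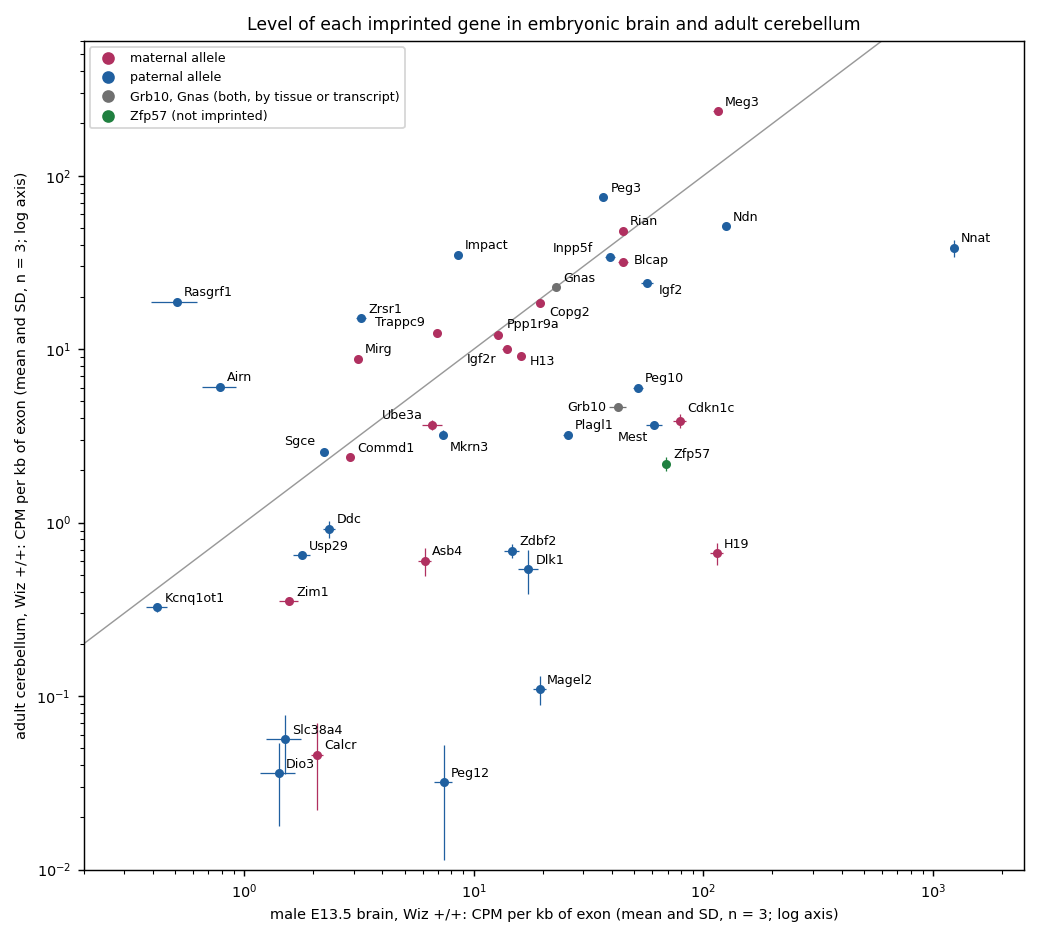
Level of each imprinted gene in Wiz +/+ male E13.5 brain (x axis) and Wiz +/+ adult cerebellum (y axis) in CPM per kb of exon, both axes logarithmic, with means and SD (n = 3), coloured by the allele each gene is known to be read from; the line marks equal levels and Phlda2, with no count in cerebellum, is not drawn. Most genes lie below the line, with Nnat at 1232 against 38.5 and H19 at 114.2 against 0.668 CPM per kb, while Rasgrf1, Airn, Zrsr1 and Impact lie well above it.

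The comparison of adult cerebellum with male embryonic brain asks how the imprinted genes differ between the tissues in which *Wiz* was studied. Age and brain region differ together and cannot be told apart. A call needed both an adjusted p no higher than 0.05 in edgeR's quasi-likelihood test and a fold change under 0.7 or over 1.3. In *Wiz* +/+, 24 of the 42 listed genes tested were lower in cerebellum and 8 were higher, or 23 and 8 of the 41 imprinted genes. Among all 16840 genes tested, 32.9% were called lower and 36.4% higher. The difference of these shares was not tested. The median log2 fold change was -1.21 over the 42 genes, -1.18 without *Zfp57* and -0.015 over all genes. Over 38 tested imprinted genes outside the list, described below, it was -0.020, with 12 called lower and 13 called higher. *Wiz* MommeD30/+ mice, whose libraries are not shared with the *Wiz* +/+ comparison, had 25 lower and 8 higher of 42, beside 33.0% and 35.8% of all genes. All 32 listed genes called in *Wiz* +/+ were called in the same direction in *Wiz* MommeD30/+. *Igf2r*, the receptor that clears *Igf2*, was called in *Wiz* MommeD30/+ at -0.56 on the log2 scale and had -0.47 in *Wiz* +/+.

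**Figure D2:**
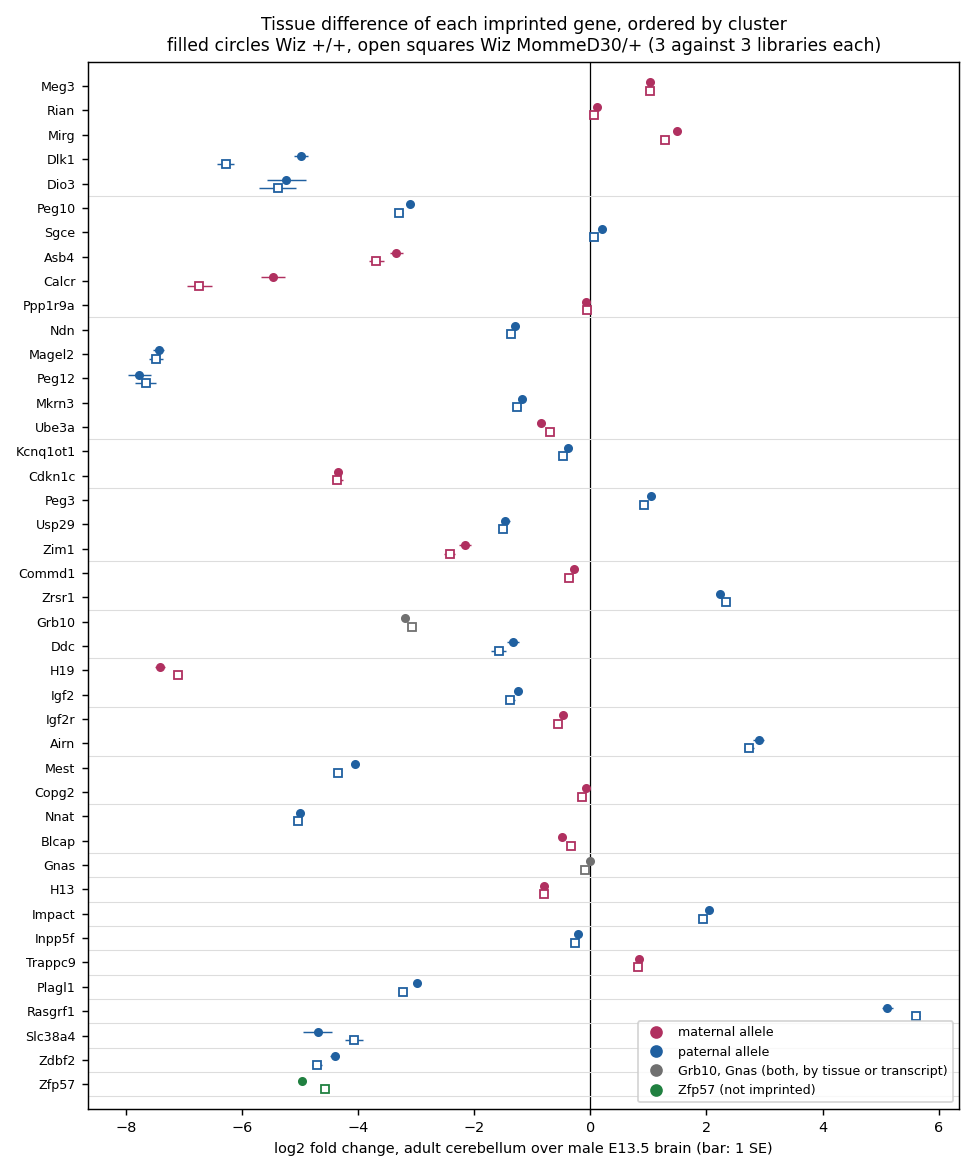
Log2 fold change of adult cerebellum over male E13.5 brain for the 41 tested imprinted genes and Zfp57, ordered by cluster with lines between clusters (filled circles Wiz +/+, open squares Wiz MommeD30/+, 3 against 3 libraries each, bars 1 SE). The genotypes lie close together for most genes, 39 of 42 within 0.5, and within single clusters some genes fall while others rise, as Dlk1 (-4.99) and Mirg (1.49) do in Wiz +/+.

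In the *H19*-*Igf2* cluster on chromosome 7, where an insulator on the maternal copy separates *Igf2* from enhancers that *H19* then uses, both genes fell, by very unequal amounts. *H19* (7:142575529-142578143) had 266.4, 276.4 and 300.3 CPM scaled over all 16 libraries in the *Wiz* +/+ male brains, against 1.41, 1.63 and 1.89 CPM in the cerebellums. Every brain was far above every cerebellum. The log2 fold change was -7.41 (SE 0.083, adjusted p = 2.36e-18, edgeR). The 136 counts summed over the 3 cerebellums gave a ratio of 170-fold, with an exact 95% interval of 144 to 203 that covers counting error only. *Igf2* fell by 1.24 on the log2 scale (SE 0.046, adjusted p = 9.77e-13, edgeR), from 326.6 ± 19.9 to 137.9 ± 4.60 CPM (SD, n = 3). The log2 ratio of *H19* to *Igf2* was therefore -0.22 ± 0.011 in male *Wiz* +/+ brain and -6.35 ± 0.25 in *Wiz* +/+ cerebellum, and -0.16 ± 0.049 in female *Wiz* +/+ brain (n = 2). Across the 10 embryonic brains, where *H19* ranged from 281.8 to 432.4 CPM scaled within brains, this ratio stayed between -0.34 and -0.07.

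The *Dlk1*-*Dio3* cluster on chromosome 12 pairs maternally read noncoding RNAs with paternally read coding genes. The RNAs *Meg3* (2095 ± 93.2 to 4272 ± 153 CPM, log2 fold change 1.03, SE 0.046, adjusted p = 9.92e-12, edgeR) and *Mirg* (22.8 ± 0.337 to 64.1 ± 1.55 CPM, 1.49, SE 0.047, adjusted p = 1.23e-13) rose. *Rian*, which carries small nucleolar RNAs, had 811.8 ± 28.9 and 880.3 ± 14.7 CPM and was not called. The coding genes went the other way. *Dlk1* (12:109452823-109463336), a transmembrane ligand related to the Notch ligands that restrains differentiation, fell from 97.9 ± 9.39 to 3.06 ± 0.870 CPM (-4.99, SE 0.115, adjusted p = 3.09e-15). *Dio3*, which inactivates thyroid hormone, fell by 5.24 (SE 0.338, adjusted p = 8.63e-10), from 2.88 ± 0.498 to 0.0727 ± 0.0363 CPM. It had 310 counts in all in the 3 brains and 6 in the 3 cerebellums, a ratio of 40.0 with an exact 95% interval of 18.2 to 110.0.

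In the Prader-Willi/Angelman cluster on chromosome 7 all 5 genes tested fell. *Peg12* had the largest fall of the list, -7.77 on the log2 scale (SE 0.203, adjusted p = 1.35e-14, edgeR), from 19.5 ± 1.75 CPM to 1 to 4 counts per cerebellum. Its ratio of summed counts was 225.0, with a 95% interval of 109.0 to 560.0. *Magel2*, a ubiquitin ligase adaptor expressed in the hypothalamus, fell by 7.44 (SE 0.101, adjusted p = 1.13e-17), from 89.6 ± 5.94 to 0.508 ± 0.0965 CPM. The falls of *Ndn* (-1.29), *Mkrn3* (-1.18, a brake on puberty) and the maternally read ubiquitin ligase *Ube3a* (-0.86) were much smaller.

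Genes of the *Peg10*-*Sgce* cluster on chromosome 6 split in the same way. *Calcr*, the calcitonin receptor, fell by 5.47 (SE 0.211, adjusted p = 1.54e-12, edgeR), from 8.16 ± 0.466 to 0.180 ± 0.0933 CPM, and kept 2 to 7 counts per *Wiz* +/+ cerebellum. *Asb4* fell by 3.34 and *Peg10* by 3.11, from 346.2 ± 17.8 to 40.0 ± 0.284 CPM. *Sgce* (0.21), which shares a promoter region with *Peg10*, and *Ppp1r9a* (-0.080), a synaptic scaffold, were not called.

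*Peg3* and *Usp29* are read in opposite directions from 1 promoter region on chromosome 7, both from the paternal copy, and moved apart. *Peg3* rose from 487.9 ± 19.3 to 1005 ± 56.8 CPM (1.04, SE 0.049, adjusted p = 1.79e-11, edgeR) and *Usp29*, a deubiquitinase, fell from 32.2 ± 2.76 to 11.8 ± 0.379 CPM (-1.47). Their neighbour *Zim1*, read from the maternal copy, fell by 2.16. The sequence between the RefSeq starts of *Peg3* and *Usp29* (GRCm38.p6, chr7:6730420-6730582, plus strand, 163 bases) is shown because 2 genes that moved in opposite directions share it. It is 62.0% G and C and has 5 CpG sites:
Peg3-Usp29: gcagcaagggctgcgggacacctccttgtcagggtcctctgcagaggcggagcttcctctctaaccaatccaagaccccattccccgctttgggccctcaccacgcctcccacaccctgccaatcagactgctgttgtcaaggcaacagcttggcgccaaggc

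Nested and overlapping genes differed in the size or direction of the change. *Nnat* lies inside *Blcap*, on the other strand, over all of its 2445 bases. *Nnat* (2:157560078-157562522) fell from 2253 ± 54.2 to 70.4 ± 7.88 CPM (-4.999, SE 0.068, adjusted p = 1.12e-17, edgeR), while *Blcap*, the maternally read host, had 136.3 ± 6.36 and 97.2 ± 1.45 CPM and was not called (-0.48). *Zrsr1*, a splicing factor gene nested in *Commd1*, rose from 14.5 ± 0.783 to 67.8 ± 0.531 CPM (2.23, SE 0.050, adjusted p = 2.19e-15), and *Commd1*, a copper metabolism gene, was not called (-0.28). *Airn*, the noncoding RNA that overlaps *Igf2r* by 28354 bases on the other strand, rose from 2.83 ± 0.474 to 21.9 ± 1.16 CPM (2.90, SE 0.098, adjusted p = 2.88e-13). *Mest*, a hydrolase family gene, fell by 4.06 (SE 0.062, adjusted p = 3.28e-17) and *Copg2*, a coat protein gene whose end overlaps it by 912 bases, was not called (-0.076). Whether htseq-count was run with strand is not given in the sources used here, so reads from the overlapping stretches of these pairs cannot be told apart.

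The remaining genes stand alone or in pairs. *Rasgrf1*, an exchange factor for Ras, had the largest rise of the list, from 5.64 ± 1.28 to 207.2 ± 5.22 CPM (5.12, SE 0.088, adjusted p = 1.16e-16, edgeR), and *Impact* rose by 2.04 (SE 0.043, adjusted p = 1.29e-15) and *Trappc9* by 0.84. *Zdbf2* fell by 4.41 (SE 0.077, adjusted p = 1.36e-16), the amino acid transporter *Slc38a4* by 4.70 (SE 0.246, adjusted p = 6.57e-11), *Cdkn1c* by 4.35, the growth adaptor *Grb10* by 3.19, the transcription factor *Plagl1* by 2.99, *Ddc*, an enzyme of dopamine and serotonin synthesis, by 1.34 and the peptidase *H13* by 0.80. *Kcnq1ot1* (-0.39), *Inpp5f* (-0.22) and *Gnas* (-0.013), which encodes a G protein subunit, were not called. By allele, 15 of 23 paternal genes tested were called lower and 5 higher, with a median of -1.34. Of 16 maternal genes tested, 7 were called lower and 3 higher, with a median of -0.48. Among all genes tested, 32.9% were called lower and 36.4% higher, with a median of -0.015. These class medians were not tested against each other.

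*Zfp57* (ENSMUSG00000036036, 17:37001163-37010635) was also lower in cerebellum. It had 260.4 ± 8.02 CPM in male *Wiz* +/+ brain and 8.29 ± 0.812 CPM in *Wiz* +/+ cerebellum (-4.97, SE 0.060, adjusted p = 4.29e-18, edgeR). The hexamer TGCCGC that it binds, with its reverse complement GCGGCA, was searched in RefSeq promoter windows of 300 bases (250 before and 50 after the start). It was present in 11.6% of 32851 windows and in 13.1% of 27025 genes. Among the 38 listed genes with a window, it was present in 13 of 61 windows (21.3%) and in 12 genes (31.6%). These 38 include *Zfp57* itself and *Snrpn*, whose level was not analysed. The difference of the shares was not tested. A match is a description of letters and not a binding site. The 250 bases before a RefSeq start of *Zdbf2*, with 3 matches, and of *Mest*, with 2, are shown as examples of windows that hold the hexamer more than 1 time. A window of *Calcr* also held it 2 times and is not shown. The *Zdbf2* window precedes an upstream RefSeq start and lies outside the GENCODE model used for its level, which begins at 63273265. The hexamers are in capitals (GRCm38.p6, Zdbf2 chr1:63200108-63200357 and Mest chr6:30737800-30738049, both plus strand):
Zdbf2: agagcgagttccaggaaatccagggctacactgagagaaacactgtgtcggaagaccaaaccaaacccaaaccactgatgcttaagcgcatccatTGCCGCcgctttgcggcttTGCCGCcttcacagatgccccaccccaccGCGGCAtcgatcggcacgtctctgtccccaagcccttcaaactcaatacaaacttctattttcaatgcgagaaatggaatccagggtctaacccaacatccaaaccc
Mest: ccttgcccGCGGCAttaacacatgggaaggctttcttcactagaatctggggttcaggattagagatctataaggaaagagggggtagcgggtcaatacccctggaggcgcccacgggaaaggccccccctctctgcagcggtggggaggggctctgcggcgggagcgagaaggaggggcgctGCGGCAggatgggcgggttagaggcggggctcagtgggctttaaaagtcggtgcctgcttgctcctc

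Genes that set or read imprints, as a list of 24, were in part lower in cerebellum too. Of 20 tested, 12 were lower in *Wiz* +/+ cerebellum and 0 higher, beside 32.9% and 36.4% of all genes. They included *Uhrf1* (105.2 to 1.26 CPM), which recruits the maintenance methyltransferase, *Dnmt1* itself (259.9 to 123.4 CPM), *Trim28* (481.2 to 208.8 CPM), the corepressor that *Zfp57* recruits, and the Wiz partner *Ehmt1* (191.4 to 71.9 CPM). *Uhrf1* and *Dnmt1* are also known as genes of dividing cells. These 4 were named after their values were seen. Of a further 41 imprinted genes outside the list, 12 of 38 tested were lower and 13 higher, with a median log2 fold change of -0.020.

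The comparison of genotypes asks whether loss of 1 copy of *Wiz* changed the imprinted genes. In male embryonic brain none of the 42 listed genes tested passed the threshold, against 0.184% of all 16848 genes. At an unadjusted p under 0.05 there were 8 of 42 in edgeR, beside 8.45% of all genes, and DESeq2 also called 0. Of the 42, 34 had a higher and 8 a lower fitted value in *Wiz* MommeD30/+, beside 49.98% of all genes lower. The median log2 fold change was 0.052 over these genes and below 0.001 over all genes. The split was not tested, and genes of a cluster may vary together. Values of the genotypes did not overlap for 5 of 42 (11.9%) and for 12.4% of all genes.

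*Peg3* had the smallest p in male brain. It had 528.9, 492.8 and 526.8 CPM in *Wiz* +/+ and 626.6, 591.0 and 553.2 CPM in *Wiz* MommeD30/+. All 3 heterozygotes were above all 3 controls, and the log2 fold change was 0.19 (SE 0.046) with an adjusted p = 0.204 (edgeR). *Magel2* followed with 94.8 ± 6.30 and 109.4 ± 7.99 CPM (0.22, SE 0.057, adjusted p = 0.255, edgeR), and its lowest heterozygote (101.7 CPM) was next to its highest control (101.5 CPM). *Dlk1* (103.6 ± 9.95 and 123.4 ± 14.1 CPM, 0.26, SE 0.080, adjusted p = 0.366), *Zdbf2* (196.1 ± 15.4 and 222.9 ± 19.4 CPM, 0.18, SE 0.064, adjusted p = 0.478) and *Rasgrf1* (5.97 ± 1.35 and 4.55 ± 0.818 CPM, -0.45, SE 0.161, adjusted p = 0.487) overlapped between genotypes. With 1 library left out *Rasgrf1* ran from -0.60 to -0.20. Purkinje markers (4 genes) summed to 52.2 to 54.3 CPM in these controls and 60.5 to 62.7 CPM in these heterozygotes. The sum alone cannot tell a change of a single gene from a shift of the whole list. *Calb1* is 1 of these 4 Purkinje markers, and the study lists it among the genes that were higher in male *Wiz* MommeD30/+ brain. The part of *Calb1* in the difference between the Purkinje sums was not tested. Granule cell markers (6 genes) summed to 453.8 to 486.0 CPM in the controls and 489.0 to 502.7 CPM in the heterozygotes. The part of either cell type in the levels of the imprinted genes was not tested. *H19* (0.0087, SE 0.050), *Meg3* (0.029, SE 0.048) and *Zfp57* (0.011, SE 0.038) differed by less than their SE, and *Igf2* had 0.094 (SE 0.043, adjusted p = 0.584).

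In female embryonic brain none of the 42 listed genes passed either, against 0.111% of 17152 genes. An unadjusted p under 0.05 was found for 6 of 42 (14.3%) in edgeR, beside 6.40% of all genes, and DESeq2 called 0. Here 18 genes were higher and 24 lower, with a median of -0.045, beside 49.98% of all genes lower. With 2 brains per genotype, groups that do not overlap are common: 21 of 42 and 36.0% of all genes. *Blcap* had the smallest p, at 161.0 and 155.9 CPM in *Wiz* +/+ and 133.4 and 149.3 CPM in *Wiz* MommeD30/+ (-0.16, SE 0.063, adjusted p = 0.773, edgeR). *Meg3* had 2522 and 2642 CPM and then 1964 and 2388 CPM (-0.25, SE 0.095, adjusted p = 0.773), so that 1 heterozygote carried most of the difference. *Rasgrf1* (5.46 ± 1.41 and 3.78 ± 0.499 CPM, -0.53, SE 0.206), *Mirg* (29.2 ± 0.536 and 25.5 ± 1.76 CPM, -0.19, SE 0.078) and *Calcr* (11.3 ± 0.486 and 8.596 ± 1.95 CPM, -0.39, SE 0.158) had the same adjusted p of 0.773 (edgeR). With 1 library left out *Rasgrf1* ran from -0.78 to -0.24 and *Calcr* from -0.64 to -0.18. Erythroid markers summed to 460.9 to 520.5 CPM in these controls and 385.5 to 428.6 CPM in these heterozygotes, and their part was not tested. The values of *Zfp57* (0.00022, SE 0.053), *Dlk1* (0.029, SE 0.085), *H19* (-0.046, SE 0.127) and *Igf2* (-0.041, SE 0.076) were within their SE of 0.

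Over the brains of both sexes, with sex as a covariate, again 0 of 42 listed genes passed the threshold, beside 0.346% of 17620 genes, and 9 of 42 (21.4%) had an unadjusted p under 0.05 in edgeR, beside 11.8% of all genes. DESeq2 called 0. *Blcap* (-0.13, SE 0.035, adjusted p = 0.168, edgeR), *Peg3* (0.15, SE 0.040, adjusted p = 0.175), *Rasgrf1* (-0.47, SE 0.138, adjusted p = 0.198), *Gnas* (-0.067, SE 0.023, adjusted p = 0.286) and *Magel2* (0.15, SE 0.056, adjusted p = 0.313) had the smallest p. *Blcap*, *Rasgrf1* and *Gnas* had fitted values below 0 and *Peg3* and *Magel2* above 0 in each sex. These genes were picked from the fit over the same brains, so their shared sign is no independent support. The difference between the sexes in the effect of genotype was tested by an interaction term, which called 0 of 42 genes and 0% of 17620, with 5 of 42 at an unadjusted p under 0.05 beside 3.98% of all genes (edgeR), and DESeq2 called 0.

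**Figure D3:**
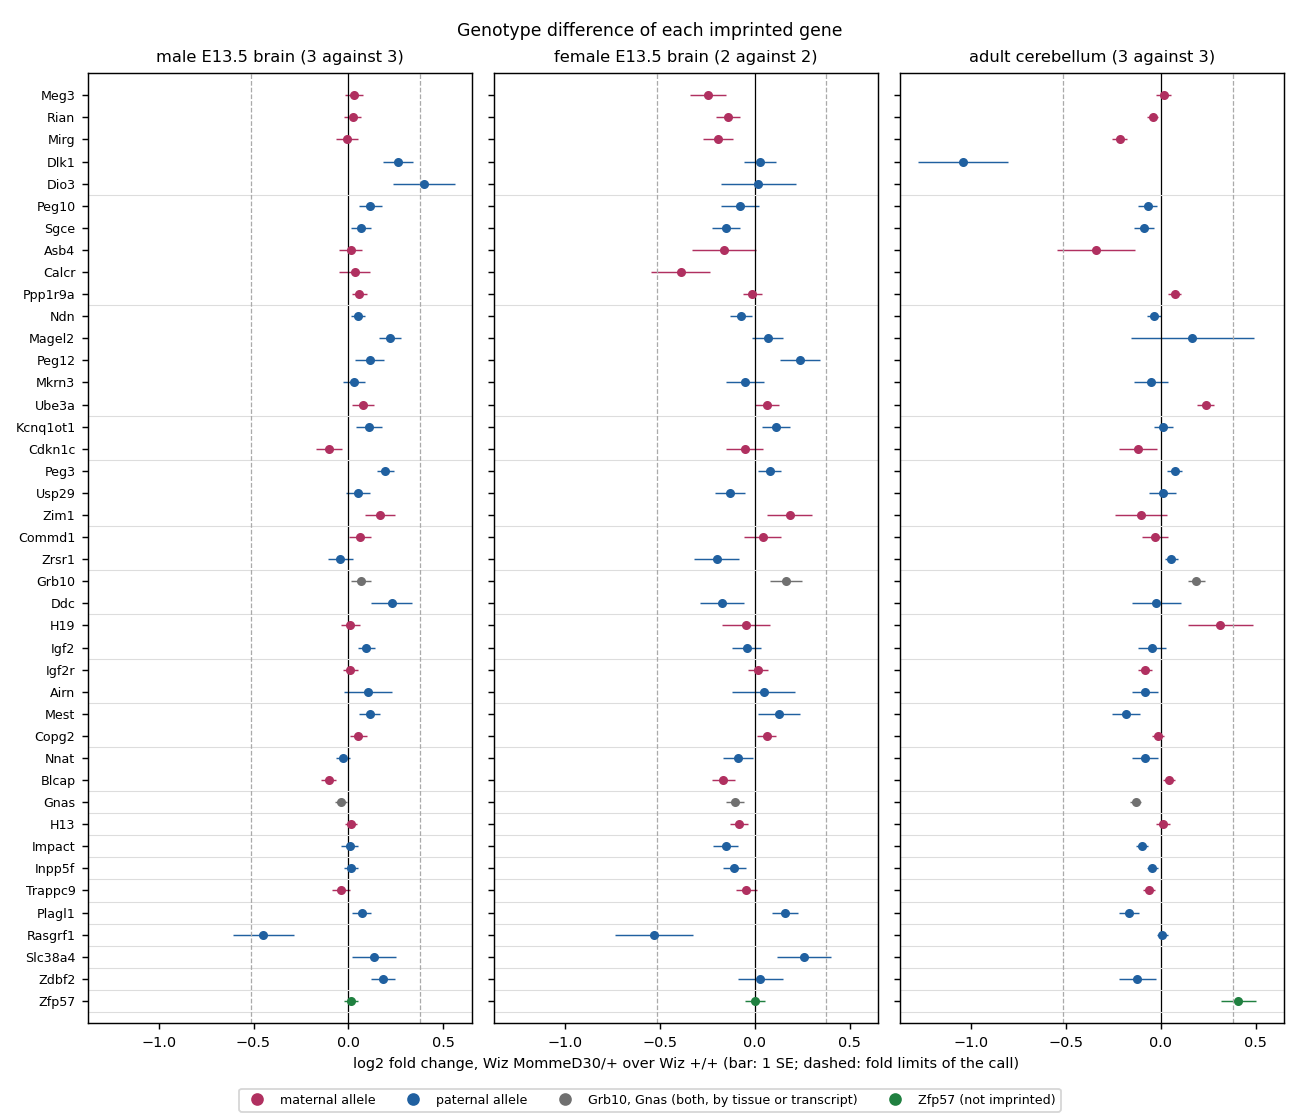
Log2 fold change of Wiz MommeD30/+ over Wiz +/+ for the imprinted genes and Zfp57 in male E13.5 brain, female E13.5 brain and adult cerebellum, with bars of 1 SE and dashed lines at the fold limits of 0.7 and 1.3; genes without a point in cerebellum were below the filter on low counts. Most points lie near 0, 0 of 42 listed genes were called in either sex, and Dlk1 (-1.04) and Zfp57 (0.41) were called in cerebellum.

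In adult cerebellum 1 of the 37 imprinted genes tested passed the threshold, *Dlk1*, which was lower in *Wiz* MommeD30/+. *Zfp57* passed as well and was higher, which makes 2 of 38 listed genes, beside 0.832% of 15979 genes. *Calcr*, *Peg12*, *Dio3*, *Slc38a4* and *Phlda2* were below the filter on low counts. Without the fold limits, 6 of 38 listed genes (15.8%), 5 of them imprinted, had an adjusted p of at most 0.05, beside 5.25% of all genes. At an unadjusted p under 0.05 there were 10 of 38 (26.3%), beside 19.9% of all genes, and the groups did not overlap for 11 of 38 (28.9%), beside 24.3%. Of the 38, 14 were higher and 24 lower, with a median of -0.043, beside 51.29% of all genes lower.

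*Zfp57* had 7.93, 7.99 and 6.70 CPM in the *Wiz* +/+ cerebellums and 10.7, 9.04 and 10.3 CPM in the *Wiz* MommeD30/+ cerebellums. Every heterozygote was above every control. The log2 fold change was 0.41 (SE 0.092, adjusted p = 0.0158, edgeR), a 1.33-fold rise that is just past the fold limit of 1.3. Without the third *Wiz* +/+ library it was 0.33 (adjusted p = 0.11) and without the first *Wiz* MommeD30/+ library 0.36 (adjusted p = 0.0895). *Zfp57* and *Wiz* lie on the same chromosome, 4.61 Mb apart.

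*Dlk1* had 2.77, 2.00 and 3.58 CPM in *Wiz* +/+ and 1.06, 1.97 and 1.04 CPM in *Wiz* MommeD30/+ cerebellum. The lowest control and the highest heterozygote nearly touched. The log2 fold change was -1.04 (SE 0.238, adjusted p = 0.0173, edgeR), at a level far below that of embryonic brain. It rested on 59 to 110 counts per *Wiz* +/+ library. With 1 library left out it ranged from -1.41 without the second *Wiz* MommeD30/+ library to -0.82 without the third *Wiz* +/+ library (adjusted p = 0.127). The adjusted p was also above 0.05 without the first *Wiz* +/+ library (-1.04, adjusted p = 0.052), the first *Wiz* MommeD30/+ library (-0.90, adjusted p = 0.109) or the third (-0.87, adjusted p = 0.0683). No other gene of the cluster was called, and *Meg3* had 0.015 (SE 0.040, adjusted p = 0.875).

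Beyond these, 4 genes had a small adjusted p with a fold change inside the limits. *Mirg* had 56.4, 59.4 and 59.2 CPM in *Wiz* +/+ and 49.3, 52.1 and 49.2 CPM in *Wiz* MommeD30/+ (-0.22, SE 0.039, adjusted p = 0.00493, edgeR). *Ube3a* had 65.1, 74.0 and 67.6 CPM and then 82.3, 83.4 and 77.8 CPM (0.24, SE 0.044, adjusted p = 0.00569). *Gnas* had 232.2, 225.7 and 234.3 CPM and then 205.5, 209.9 and 216.7 CPM (-0.13, SE 0.029, adjusted p = 0.0155). *Grb10* had 36.4, 38.1 and 40.6 CPM and then 43.3, 43.3 and 44.5 CPM (0.19, SE 0.045, adjusted p = 0.0207). In each of them the genotypes did not overlap. *H19* (0.31, SE 0.171, adjusted p = 0.324) and *Igf2* (-0.046, SE 0.072, adjusted p = 0.78) were not called.

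**Figure D4:**
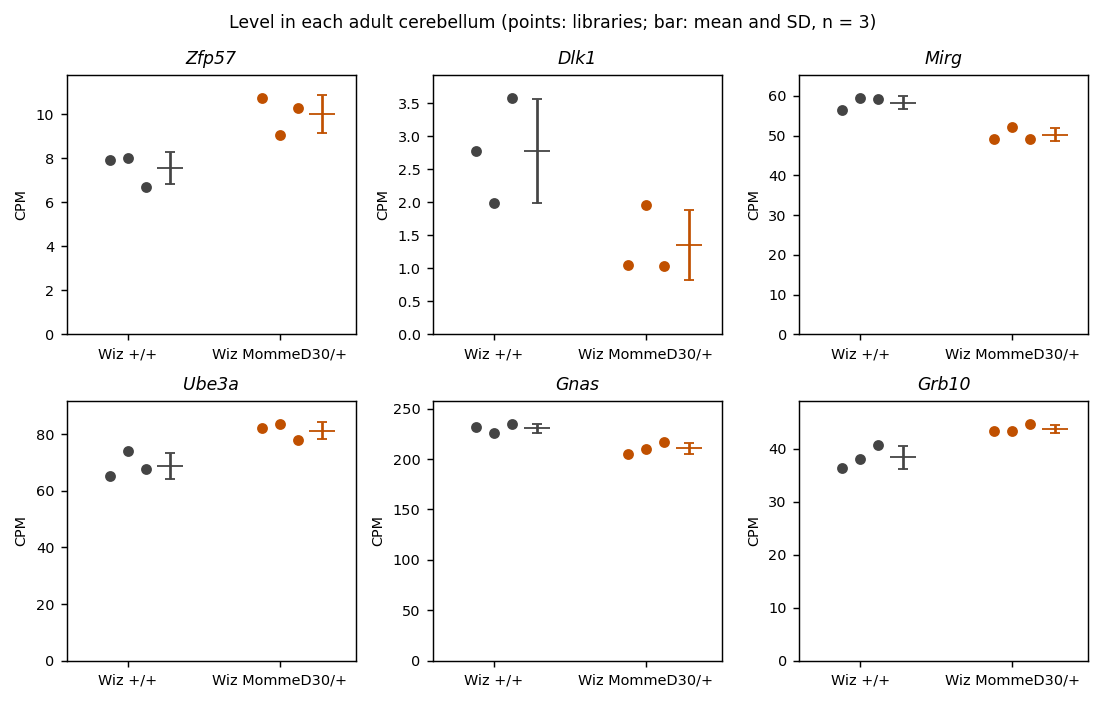
CPM in each adult cerebellum (points) with mean and SD (n = 3), axes from 0, for the 5 imprinted genes and Zfp57, those with an adjusted p of at most 0.05; Zfp57, Ube3a and Grb10 are higher and Dlk1, Mirg and Gnas lower in Wiz MommeD30/+. For Dlk1 the lowest Wiz +/+ library (2.00 CPM) and the highest Wiz MommeD30/+ library (1.97 CPM) lie next to each other.

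Marker sums also differed between the cerebellums. Embryonic neural markers lay at 1303 to 1335 CPM in *Wiz* +/+ and 1261 to 1280 CPM in *Wiz* MommeD30/+. Erythroid markers (7 genes) summed to 144.6 to 227.1 CPM in *Wiz* +/+ and 266.2 to 480.1 CPM in *Wiz* MommeD30/+, with *Alas2*, *Hba-a1*, *Hba-a2* and *Hbb-bs* called higher, and 2 of the 7 markers at 0 in each library. Choroid plexus markers (7 genes) summed to 971.8 CPM in the second *Wiz* MommeD30/+ library and 1766 to 2078 CPM in the other 5. Pituitary markers (4 genes) summed to 8.74 CPM in the first *Wiz* +/+ library and 0.779 to 1.37 CPM in the others. Meninges and mesenchyme markers were 97.4 to 113.0 CPM in *Wiz* +/+ and 98.8 to 111.7 CPM in *Wiz* MommeD30/+. The library that is lowest for choroid plexus and highest for erythroid markers is also the heterozygote with the highest *Dlk1* and the lowest *Zfp57*. The part of these cells in the results was not tested.

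Whether the effect of genotype differed between cerebellum and male brain was tested by an interaction term. It called 0 of 42 listed genes and 0.260% of 17337 genes in edgeR, with 10 of 42 (23.8%) at an unadjusted p under 0.05 beside 9.72% of all genes. The smallest adjusted p were those of *Dlk1* (difference of log2 fold changes -1.31, SE 0.307, adjusted p = 0.103) and *Zfp57* (0.39, SE 0.095, adjusted p = 0.111). DESeq2's Wald test called both, *Zfp57* at 0.40 (adjusted p = 0.00706) and *Dlk1* at -1.29 (adjusted p = 0.0346). Over all genes it called 116, where edgeR called 45. Without the third male *Wiz* MommeD30/+ brain edgeR called *Dlk1* at -1.39 (adjusted p = 0.0244), beside 103 of all genes.

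Among the 24 genes that set or read imprints, 0 of 20 tested were called in any of the 4 genotype comparisons. Over all genes, 0.111% to 0.832% were called in them. At an adjusted p of at most 0.05 but inside the fold limits, *Arid4b* (0.14, adjusted p = 0.0265, edgeR), *Zfp445* (0.13, adjusted p = 0.0412), a zinc finger protein with a role like that of *Zfp57*, and the methyltransferase *Dnmt3a* (0.11, adjusted p = 0.0412) were higher in *Wiz* MommeD30/+ cerebellum. Of the 41 other imprinted genes, 34 to 39 were tested and 0 were called in any genotype comparison, beside the same shares of all genes. *Cdh15* (0.20, adjusted p = 0.0161, edgeR) and *Snhg14* (0.14, adjusted p = 0.0315), the host transcript that runs antisense to *Ube3a*, were likewise inside the limits. These 5 genes were named after their values were seen. Reads where *Snhg14* and *Ube3a* overlap cannot be told apart either, since the strand setting is not given.

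In male brain all 5 tested genes of the *Peg10*-*Sgce* cluster had values above 0, from 0.012 to 0.115, and in female brain all 5 had values below 0, from -0.011 to -0.390. The 5 tested Prader-Willi/Angelman genes ranged from 0.029 to 0.218 in male brain and from -0.072 to 0.239 in female brain. Over paternal genes the male brain median was 0.10, the female -0.041 and the cerebellar -0.048. Over maternal genes they were 0.018, -0.050 and -0.029. The *Dlk1*-*Dio3* cluster held the widest range in cerebellum, from -1.04 to 0.016. No gene of any cluster was called in brain.

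Ratios of neighbouring genes of opposite parental expression cancel a library's scaling, and 9 such ratios were taken in each of the 3 sample sets, without a test. In male brain the log2 ratio of *H19* to *Igf2* was -0.21, -0.23 and -0.21 in *Wiz* +/+ and -0.24, -0.33 and -0.34 in *Wiz* MommeD30/+, a difference of -0.087 with no overlap. The ratio of *Meg3* to *Dlk1* was 4.42 ± 0.21 and 4.20 ± 0.074 in male brain, with groups that lay next to each other, and 10.46 ± 0.44 and 11.51 ± 0.53 in cerebellum (SD, n = 3), a difference of 1.05 that follows *Dlk1* and with groups that overlapped. *Copg2* to *Mest* in cerebellum had 2.71 ± 0.019 and 2.88 ± 0.12, with no overlap. In the other 24 of 27 ratios the genotypes overlapped. Over all genes tested singly, the share without overlap was 12.4% (male brain), 24.3% (cerebellum) and 36.0% (female brain). No such share was taken for ratios of other genes. Lack of overlap in a ratio is therefore a description and not evidence of a genotype effect. Each difference between tissues was far larger than any between genotypes. For *Cdkn1c* to *Kcnq1ot1*, for example, the *Wiz* +/+ values were 2.04 ± 0.21 in male brain and -1.94 ± 0.10 in cerebellum, and for *Blcap* to *Nnat* -4.05 ± 0.045 and 0.47 ± 0.18, so that both ratios turned over between the tissues.

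**Figure D5:**
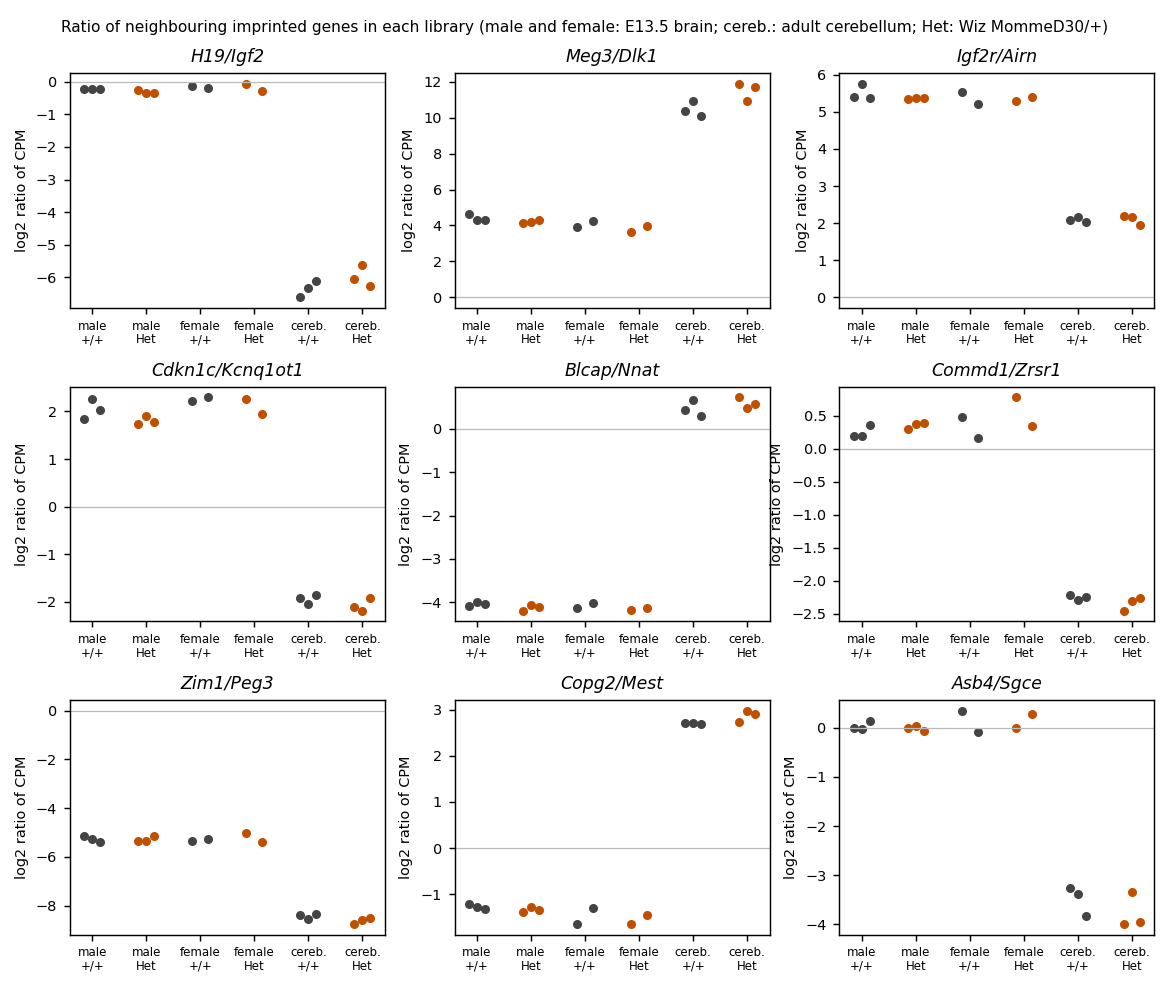
Log2 ratio of CPM for 9 pairs of neighbouring imprinted genes in each of the 16 libraries (dark grey Wiz +/+, orange Wiz MommeD30/+; male and female E13.5 brain, then adult cerebellum). The step between brain and cerebellum, as for H19/Igf2 from -0.22 to -6.35, is far larger than any step between genotypes, of which the largest is that of Meg3/Dlk1 in cerebellum (1.05).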

How the data were processed

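RNA-seq was analysed for 16 samples; 3 ChIP-seq samples were not analysed here. Per the labels and the study's methods, the authors made polyA libraries, sequenced them single-end, aligned to mm10 using TopHat2 2.0.11, counted reads over genes with HTSeq 0.6.1, and deposited raw read counts for each Ensembl gene. Counting mode, strand setting and annotation release are not given in the sources used here. Symbols and positions came from GENCODE M21 (GRCm38), which held 40340 of 41388 identifiers; the other 1048 had at most 0.171% of a library's counts.

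Only the libraries of a comparison entered its fit, which covered all genes and used edgeR 4.0.16 in R 4.3.3, filterByExpr with a minimum count of 10, TMM scaling, the quasi-likelihood test and Benjamini-Hochberg adjustment. Interactions used the adjusted p alone. SE is the absolute log2 fold change over the square root of F. CPM were scaled within brains or within cerebellums, or over all 16 libraries where tissues were compared. Ratios used a prior count of 2. Alternatives were DESeq2 1.42.0 (size factors, Wald test), no filter, no fold limits, a replicate block and leaving out each library. Replicate pairs differed by more than sampling gives (chi-square per degree of freedom 2.05 to 10.5), so none was merged. Intervals on count ratios cover counting error only.

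The members and lists were chosen with earlier results of these data known. By rule, values were given for members past the threshold in a genotype comparison, the 5 with the smallest p in each, the 10 largest falls and 5 largest rises between tissues, and *H19*, *Igf2*, *Meg3*, *Dlk1* and *Zfp57*.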

Additional observations from a re-analysis of the deposited data

How the results depend on the processing

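Of 1417 recomputed values, 18 had another sign than the reported one, 3 medians of the genotype effect in brain (female, -0.098 to 0.025; both sexes, -0.016 to 0.035) and 15 genotype differences of ratios, none of them called. With DESeq2 size factors, 1 listed gene in female brain and 1 over both sexes had another sign. In all, 1371 values stayed on their side of the threshold or within range. The count of called listed genes stayed at 0 in male brain, in female brain, over both sexes and for genotype by sex under every alternative, including each library left out. In cerebellum it was 2, became 6 without fold limits, and ranged from 0 to 2 with a library left out. For genotype by tissue it was 0, beside 45 of all genes. It became 2 with DESeq2's Wald test, beside 116 of all genes, and 6 with no filter on low counts, beside 416. With a library left out it ranged from 0 to 1, and the count over all genes from 14 to 103. The cause was not tested. The tissue counts were 32 in *Wiz* +/+ (33 with the female brains added) and 33 in *Wiz* MommeD30/+, and became 39 in each without fold limits. At an unadjusted p under 0.05 in edgeR there were also 39 of 42 in each, beside 86.92% and 87.52% of all genes. With a library left out the tissue counts ran from 32 to 32 and from 33 to 34. With the replicate block the counts were 0, 0, 0 and 2 for the genotype comparisons and 32 and 33 for the tissues. Residuals of same-numbered samples correlated at -0.246 to 0.0265. These residuals were centred within groups of 2 or 3 libraries, so they cannot decide whether the numbers pair samples. With a library left out, the count over all genes ran from 20 to 117 in male brain (31), 0 to 261 in female brain (19) and 70 to 153 in cerebellum (133), and was 3 in female brain with the replicate block. Ranked by CPM instead of CPM per kb, 6 of the 10 highest genes in male brain were shared. Depth limits the low genes in cerebellum: *Peg12*, *Dio3*, *Calcr* and *Slc38a4* had 1 to 9 counts per *Wiz* +/+ library.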
